A study of Mus musculus with 6 samples.

Results

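Cholesterol synthesis was followed here through 8 genes in regulatory T cells (Tregs) that had lost the zinc finger protein Zfp335. The 8 genes were taken by symbol from the deposited count table. They comprise Srebf2, the sterol-sensing transcription factor SREBP2, its inhibitor Insig1, and the enzymes Hmgcs1, Idi1, Fdps, Fdft1, Sqle and Lss. All 8 were found among the 32285 rows of the table and all 8 passed the filter on low counts, which left 17307 genes.

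Bulk RNA-seq had been performed on CD4+CD25+ cells sorted from the spleens of C57BL/6 mice, with 3 libraries from Zfp335-deficient mice (KO) and 3 from control mice (WT). The labels give the KO mice as ERCre+Zfp335f/f and the controls as wild-type littermates, whereas the methods of the study call the controls ERCre mice and state that both groups received tamoxifen. According to those methods, mice of 6 weeks were given 3 injections and were sacrificed on day 7. ERCre is a Cre recombinase fused to a mutant estrogen receptor, which enters the nucleus once tamoxifen is given. It is not restricted to Tregs, so other cells of the KO mice may have lost Zfp335 as well. Whether each library came from 1 animal is not given in the sources used here. The p values take the libraries as replicates and may not cover the spread between mice.

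Cells make cholesterol from acetyl-CoA. The mevalonate steps lead to farnesyl diphosphate, which is either used to modify proteins or joined into squalene, the first compound committed to sterols. SREBP2 is held in the endoplasmic reticulum by SCAP and the INSIG proteins when sterols are abundant. When sterols fall, it moves to the Golgi, is cut there, and its released part turns on genes of cholesterol synthesis and uptake. In Tregs, mevalonate metabolism is known to support proliferation and suppressive function.

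To show what the genes carry at their starts, promoter windows were read from RefSeq (GRCm38.p6), which held an entry for 5 of the 8 genes (Srebf2, Hmgcs1, Idi1, Lss and Insig1). Those for Srebf2, Hmgcs1 and Insig1 are printed because Srebf2 is the regulator, Hmgcs1 an enzyme gene that fell with it, and Insig1 a SREBP2 target that was not called. Idi1 and Lss, whose windows are not printed, fell as well. Each sequence runs 5′ to 3′ on the plus strand and ends before the first gene start annotated by RefSeq or GENCODE. Capitals mark TCACCCCA, a core shared by sterol regulatory elements, and CCAAT or its reverse complement ATTGG, the motif of the factor NF-Y.
Srebf2, chr15:82147019-82147180: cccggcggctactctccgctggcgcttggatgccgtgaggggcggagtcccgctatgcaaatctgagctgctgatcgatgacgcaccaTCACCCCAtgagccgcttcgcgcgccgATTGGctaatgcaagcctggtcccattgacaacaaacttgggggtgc
Hmgcs1, chr13:119690101-119690350: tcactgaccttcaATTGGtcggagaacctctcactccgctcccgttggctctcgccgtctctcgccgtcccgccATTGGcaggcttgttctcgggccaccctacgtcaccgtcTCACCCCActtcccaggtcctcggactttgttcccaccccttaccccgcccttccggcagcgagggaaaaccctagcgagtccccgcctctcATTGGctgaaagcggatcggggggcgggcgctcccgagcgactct
Insig1, chr5:28071162-28071362: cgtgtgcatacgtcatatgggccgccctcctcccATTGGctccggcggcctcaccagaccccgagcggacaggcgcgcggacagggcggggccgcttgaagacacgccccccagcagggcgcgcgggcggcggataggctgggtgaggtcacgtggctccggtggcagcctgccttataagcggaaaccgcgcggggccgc

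The letters TCACCCCA, searched on both strands of the whole window of 250 bases before to 50 bases after the RefSeq start, were found in 2 of the 5 genes. The match began 162 bases upstream of the start in Srebf2 and 137 bases upstream in Hmgcs1. Idi1, Lss and Insig1 held no match, and of these Idi1 and Lss were lower in KO, as Srebf2 and Hmgcs1 were. Of all 32851 RefSeq windows of this length, 1.56% held these letters. A longer form of the sterol regulatory element, which contains TCACCCCA, was in 0 of the 5 and in 0.0913% of all windows. CCAAT was present in all 5 genes and in 37.4% of all windows. Of the 21 synthesis enzymes considered below, 16 had an entry, and 15 of these held CCAAT in at least 1 window, against 42.1% of the 12380 genes that were tested and had an entry. TCACCCCA was in 1 of the 16, which is Hmgcs1, against 1.83% of tested genes. GGGCGG, a motif bound by Sp1, was also in 15 of the 16, against 62.5% of tested genes. CACGTG, the E-box, was in 3 of the 16, against 11% of tested genes, and of the 5 genes with a window it was found in Insig1. These matches describe letters and do not show that a factor was bound.

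Libraries held between 133283969 and 209041812 counts, and scaling factors by the TMM method lay between 0.987 and 1.014. Levels are given as CPM, counts brought to a common library size with these factors applied. Zfp335 fell from 120.1 ± 4.67 to 14.8 ± 0.451 CPM (SD, n = 3 libraries each). The Treg genes Foxp3, Il2ra, Ctla4, Ikzf2, Tnfrsf18, Cd4 and Cd3e summed to between 3575 and 3622 CPM in WT and between 3669 and 3724 CPM in KO. Of these, 2 were called higher and 2 lower, against 12% and 12.1% of all genes. Those higher were Ctla4 (log2 fold change 0.65, from 410.3 to 645.3 CPM) and Tnfrsf18 (0.12). Those lower were Foxp3 (-0.11) and Il2ra (-0.15). Xist, the RNA that coats the silenced X chromosome in females, rose from 0.272 ± 0.132 to 134.6 ± 10.4 CPM (SD, n = 3 each), while Y-linked RNA was counted in all 6 libraries. Of the Y-linked genes, Ddx3y (log2 fold change -0.38), Kdm5d (-0.28) and Uty (-0.54) were lower in KO and Eif2s3y (0.011) was not called. A difference in the sex of the mice therefore cannot be told apart from the genotype in any result below.

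WT and KO were compared by edgeR's quasi-likelihood test over all 17307 genes, and a gene was called at a Benjamini-Hochberg adjusted p under 0.05. Of the 8 genes, 7 were lower in KO, 0 were higher, and Insig1 was not called. Over all genes tested, 12.1% were called lower and 12% higher. The median log2 fold change of the 8 genes was -0.59, against -0.0042 over all genes. The 3 KO values of each of the 7 genes were all under its 3 WT values, as they were for 19.1% of all genes tested. With the cutoffs of the study, which require a 1.5-fold change beside an adjusted p under 0.1, 4 of the 8 (Hmgcs1, Sqle, Idi1 and Fdps) were called lower, against 4.37% of all genes. The study states these cutoffs for DESeq2, in its account of Tregs from Foxp3Cre mice, and here they were applied to edgeR values.

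**Figure D1:**
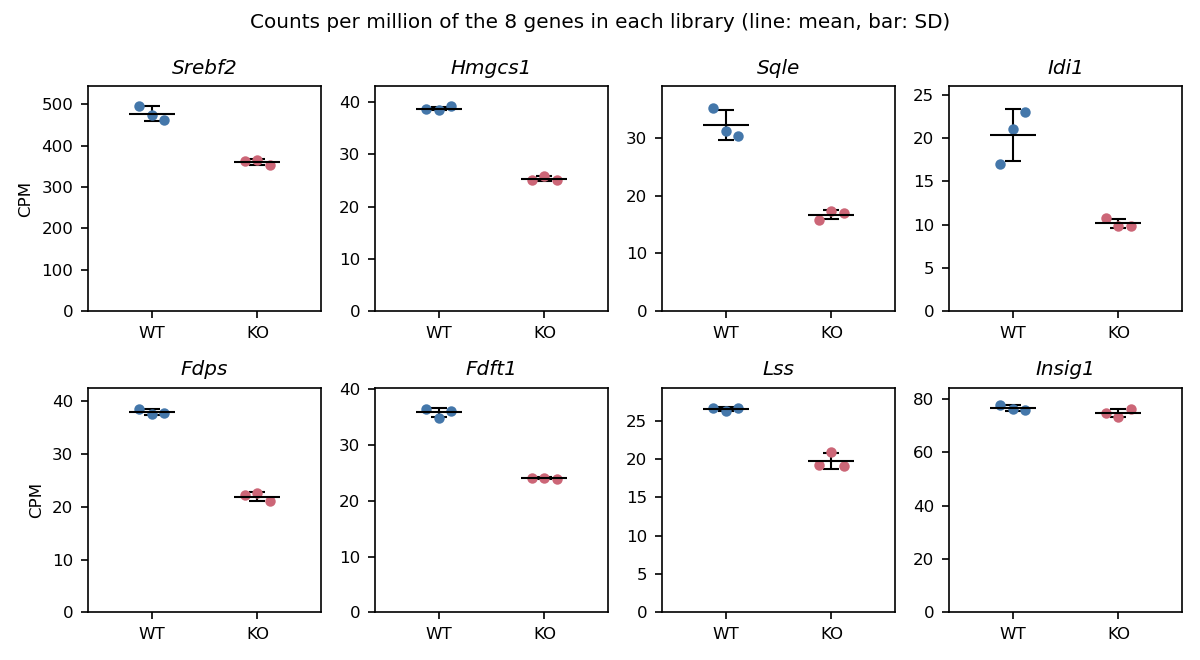
CPM of the 8 genes (vertical axes, each starting at 0) in the 3 WT libraries (blue) and the 3 KO libraries (red), with the mean as a horizontal line and the SD as a bar. The points of WT and KO are apart in every panel but that of Insig1.

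Srebf2 encodes the precursor of SREBP2 and is itself a target of SREBP2. Its level was 497, 473 and 462 CPM in WT replicates 1, 2 and 3 and 364, 365 and 353 CPM in KO replicates 1, 2 and 3. The KO libraries lay close together and the groups did not overlap. The log2 fold change of Srebf2 was -0.40 (SE, the standard error, 0.035, adjusted p = 2.36e-06), so that its RNA fell by 24.5%. Srebf2 lies on chromosome 15 of GRCm38 from 82147181 to 82205379 on the plus strand.

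The genes of its partners were not called. SCAP escorts SREBP2 to the Golgi, and the log2 fold change of Scap was 0.11 (SE 0.042, adjusted p = 0.079), from 191.3 ± 11.9 to 206.5 ± 3.33 CPM. Scap was called higher without WT replicate 1 (0.16, adjusted p = 0.00113) and with the replicate number as a block (adjusted p = 0.0412). Insig2, the other INSIG gene, went from 10.9 ± 0.236 to 10.1 ± 0.552 CPM (log2 fold change -0.11, adjusted p = 0.258). Srebf1, which encodes the related factor that favours fatty acid synthesis, went from 181 ± 8.37 to 171.9 ± 5.82 CPM (SD, n = 3 each). Its log2 fold change of -0.075 did not pass (adjusted p = 0.211). Whether Srebf2 differed from these genes in its response was not tested.

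Among the 12 other genes of the list of SREBP regulators, 3 were higher, against 12% of all genes, and 0 were lower. Lpin1, a phosphatidate phosphatase that keeps SREBP out of the nucleus, rose from 38.3 ± 0.625 to 48.7 ± 0.483 CPM (log2 fold change 0.35, adjusted p = 2.77e-05). Fbxw7, which marks nuclear SREBP for degradation, rose by 0.24 on the log2 scale, as did Pgrmc1, a haem-binding protein of the endoplasmic reticulum. The NF-Y subunits Nfya, Nfyb and Nfyc and Sp1 were not called.

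Enzymes of the mevalonate steps were lower together. Hmgcs1, HMG-CoA synthase, makes HMG-CoA, and its gene lies on chromosome 13 from 119690379 to 119708260. It was counted at 38.7, 38.4 and 39.2 CPM in WT replicates 1 to 3 and at 25.1, 25.9 and 25.0 CPM in KO replicates 1 to 3. WT libraries differed by less than 1 CPM, as did KO libraries, and the groups stood far apart. The log2 fold change was -0.61 (SE 0.043, adjusted p = 2.98e-07), and the RNA decreased by 34.6%.

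Idi1, isopentenyl diphosphate isomerase, interconverts the 2 five-carbon units from which all isoprenoids are built. It showed 17.1, 21.1 and 23.0 CPM in WT replicates 1 to 3 against 10.8, 9.80 and 9.81 CPM in the KO replicates. This was the widest spread among WT libraries of the 8 genes, with an SD of 14.9% of the mean, and WT replicate 1 was the lowest. Even so, its lowest WT library was well above its highest KO library. Idi1 decreased by 50.1%, the most of the 8 genes by estimate, and the 95% interval of its log2 fold change was the widest, from -1.22 to -0.79 (SE 0.099, adjusted p = 1.82e-05). Without WT replicate 1 the log2 fold change was -1.12.

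Fdps, farnesyl diphosphate synthase, supplies the branch point between sterols and protein prenylation. Its levels were 38.6, 37.6 and 37.8 CPM in WT replicates 1 to 3, and 22.2, 22.6 and 21.1 CPM in the KO replicates. Both groups were tight, and Fdps fell by 42.2%. The log2 fold change was -0.79 (SE 0.046) and the adjusted p of 5.44e-08 was the smallest of the 8 genes.

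The other 5 mevalonate enzymes on the list, Acat2, Mvk, Pmvk and Mvd among them, were all called lower, against 12.1% of all genes. Their log2 fold changes ran from -0.47 to -0.21. Acat2 shares 39.1% of its 50-base transcript stretches with other genes, Acat3 and Tcp1, and is less certain. Mvk, mevalonate kinase, fell by 0.47 on the log2 scale (adjusted p = 0.000163), and Mvd, mevalonate diphosphate decarboxylase, by 0.35 (adjusted p = 0.000542).

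The steps from farnesyl diphosphate to cholesterol were lower as well. Fdft1, squalene synthase, commits farnesyl diphosphate to sterols. WT replicates 1 to 3 had 36.5, 34.9 and 36.2 CPM, and KO replicates 1 to 3 had 24.1, 24.1 and 23.9 CPM. The KO libraries were nearly equal and lay below each WT library. Fdft1 had a log2 fold change of -0.58 (SE 0.044, adjusted p = 7.36e-07), which is just short of the 1.5-fold change in the cutoffs of the study.

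Sqle, squalene epoxidase, carries out the first oxygen-dependent step and is degraded when cholesterol is abundant. Its levels were 35.2, 31.2 and 30.4 CPM in WT replicates 1 to 3 and 15.8, 17.3 and 17.1 CPM in KO replicates 1 to 3. WT replicate 1 was the highest, and no KO library approached the WT range. The decrease of 48.2% corresponded to a log2 fold change of -0.95 (SE 0.063, adjusted p = 1.93e-07).

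Lss, lanosterol synthase, on chromosome 10 from 76531588 to 76557138, folds the epoxide into the first sterol. It was measured at 26.7, 26.3 and 26.7 CPM in WT replicates 1 to 3 and at 19.2, 20.9 and 19.1 CPM in the KO replicates. The WT libraries were nearly equal, and the highest KO library, replicate 2, remained below them. Its log2 fold change of -0.42 (SE 0.052, adjusted p = 5.24e-05) was, with that of Srebf2, the smallest among the 7 genes called.

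Of the other 10 sterol enzymes, 7 were lower and 0 were higher, against 12.1% and 12% of all genes. Their median log2 fold change was -0.32, against -0.0042 over all genes. Cyp51, lanosterol demethylase, fell from 43.9 ± 2.58 to 24.7 ± 0.183 CPM (log2 fold change -0.83, adjusted p = 7.06e-08). Msmo1, which removes methyl groups from sterols, fell from 14.1 ± 0.640 to 8.80 ± 0.164 CPM (-0.68, adjusted p = 5.04e-06; SD, n = 3 each). Dhcr7 (-0.37), Nsdhl (-0.32), Sc5d (-0.31) and Ebp (-0.26) were also lower and act in the later steps of sterol modification. The enzymes not called were Tm7sf2 (-0.17), Lbr (-0.086) and Hsd17b7 (-0.13). These 7 were named after their values were seen. Tm7sf2 and Lbr encode the sterol reductases of the same step, and Lbr is also a structural protein of the inner nuclear membrane.

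Across the 21 synthesis enzymes, the 6 described first included, 18 were lower and 0 were higher, against 12.1% and 12% of all genes. The median log2 fold change was -0.37, against -0.0042 over all genes. In 20 of the 21 each KO value was under each WT value, as in 19.1% of all genes. Cell cycle genes moved with these enzymes: all 5 markers (Mki67, Top2a, Ccnb1, Cdk1 and Birc5) were lower, against 12.1% of all genes. The summed level of these markers was between 315 and 378 CPM in WT and between 253 and 279.7 CPM in KO. Their part in the result was not tested. In sorted bulk samples, fewer cells of a type and less RNA per cell cannot be told apart.

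**Figure D2:**
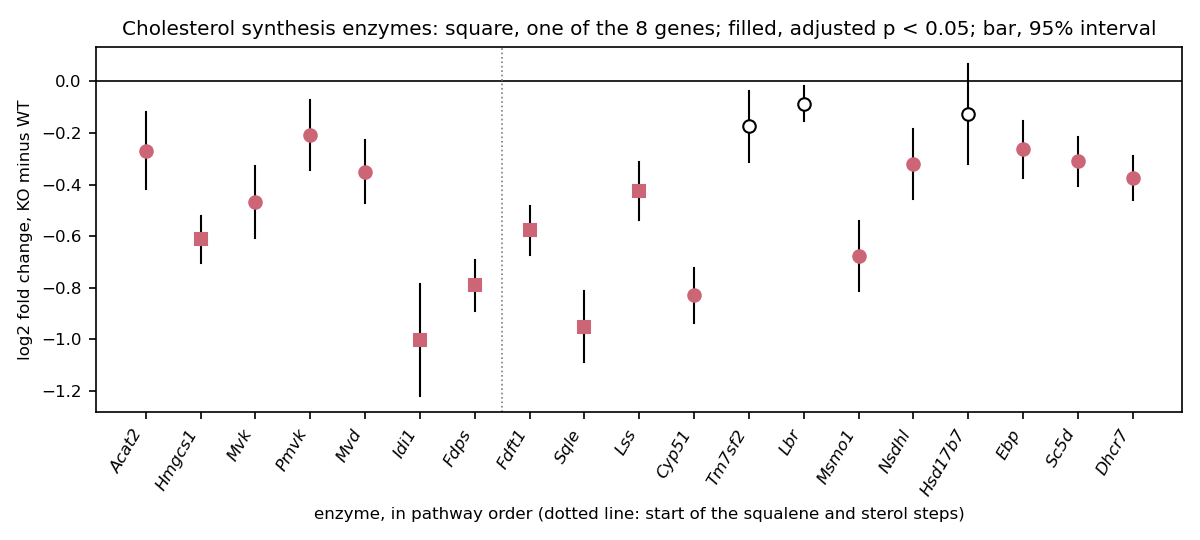
Log2 fold change (KO minus WT, vertical axis) of 19 of the 21 enzymes in pathway order (horizontal axis), with 95% intervals as bars, squares for the 6 enzymes among the 8 genes and filled symbols for an adjusted p under 0.05. All 19 estimates are below 0, from Idi1, the lowest, to -0.086 for Lbr, and the 3 open symbols are Tm7sf2, Lbr and Hsd17b7.

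Insig1, on chromosome 5 from 28071363 to 28078662, was the 1 gene of the 8 that was not called. INSIG-1 retains the SCAP and SREBP complex in the endoplasmic reticulum and its gene is a known SREBP target. It was counted at 77.7, 76.1 and 75.8 CPM in WT replicates 1 to 3 and at 74.6, 73.2 and 76.0 CPM in KO replicates 1 to 3. KO replicate 3 lay between the WT libraries, so the groups overlapped. The log2 fold change was -0.037 (SE 0.035, adjusted p = 0.51), with a 95% interval from -0.11 to 0.040. No interval of the other 7 genes reached above -0.31.

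Within libraries, the level of Insig1 was also set against each of the other genes as a log2 ratio. The ratio of Insig1 to Srebf2 was -2.64 ± 0.035 in WT and -2.27 ± 0.052 in KO, a rise of 0.37. That of Insig1 to Fdps was 1.01 ± 0.0077 in WT and 1.77 ± 0.078 in KO, a rise of 0.75 (SD, n = 3 libraries each). The ratio to each of the 7 genes was higher in all KO than in all WT libraries. Since Insig1 was singled out as the gene not called, while the other 7 did not overlap between groups, this separation is a description and no separate evidence. The rise ranged from 0.37 for Srebf2 to 0.96 for Idi1.

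Set per kilobase of annotated exons, levels in WT were highest for Srebf2, at 66.4 ± 2.48 CPM per kb, and Insig1, at 24.7 ± 0.332. The enzymes were far lower. Fdps had 9.02 ± 0.127 CPM per kb, Fdft1 8.48 ± 0.197, Hmgcs1 8.44 ± 0.0816, Sqle 5.82 ± 0.464, Idi1 5.81 ± 0.866 and Lss 2.46 ± 0.0222. Fdft1 and Hmgcs1, and likewise Sqle and Idi1, did not differ beyond their spread. In KO, Fdps, at 5.22 ± 0.183 CPM per kb, came after Fdft1, at 5.68 ± 0.0356, and Hmgcs1, at 5.52 ± 0.102. Lss was again the lowest, at 1.83 ± 0.0950 (SD, n = 3 libraries throughout). These levels take all annotated exons as the length, which understates genes with long rare exons.

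Taken as the mean z score of log2 CPM over the 8 genes, the WT libraries lay between 0.80 and 0.99 and the KO libraries between -0.90 and -0.82. Among 9005 genes outside the lists whose average log2 CPM was 3 or more, those whose log2 CPM followed this mean most closely over the 6 libraries were Tor4a, Dctn1, Prkcq, Igtp and Zfp335. Pearson r was above 0.95 for 457 of the 9005 genes. With 2 groups this far apart, the correlation mainly follows the group, and it is given as a description.

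Of 16 tested genes of uptake and intracellular transport, 3 (18.8%) were lower and 1 (6.25%) was higher, against 12.1% and 12% of all genes. Stard4, a carrier that moves cholesterol between membranes, fell from 37.7 ± 1.61 to 28.2 ± 1.28 CPM (log2 fold change -0.42, adjusted p = 5.05e-05). Also lower was Tmem97, a regulator of NPC1, at -0.41 (adjusted p = 0.00531), named after its values were seen. Mylip, also called IDOL, is a ubiquitin ligase that limits lipoprotein uptake and a target of the sterol-activated LXR receptors. It rose from 53.0 ± 1.13 to 66.0 ± 1.73 CPM (0.32, adjusted p = 5.3e-05; SD, n = 3 each). Npc1, Npc2 and Lipa, which release cholesterol from lysosomes, were not called.

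Genes of efflux were higher where they were called. Abca1, a transporter that loads cholesterol onto apolipoproteins, was at 38.0, 34.3 and 33.4 CPM in the WT replicates and at 52.0, 54.5 and 56.5 CPM in the KO replicates. Each KO library was above each WT library, and the log2 fold change was 0.62 (SE 0.053, adjusted p = 1.88e-06). Abcg1, which passes cholesterol to HDL, rose from 163.3 ± 6.64 to 226.4 ± 2.77 CPM (0.47, adjusted p = 7.58e-07). Nr1h2, the LXR beta receptor that drives both transporters, rose by 0.20 on the log2 scale (adjusted p = 0.00166; chosen after its values were seen). In all, 4 of 11 tested genes of efflux, oxysterols and esterification were higher, against 12% of all genes, and 0 were lower.

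The remaining gene of that list to rise was Apoe, the apolipoprotein of cholesterol export, from 37.5 ± 3.93 to 50.9 ± 1.20 CPM (log2 fold change 0.44, adjusted p = 0.000215; SD, n = 3 each). Macrophages make much Apoe. The 5 myeloid markers (Lyz2, Csf1r, Itgam, Cd68 and Adgre1) summed to between 41.8 and 46.1 CPM in WT and between 28.1 and 30.3 CPM in KO. Of these, 2 were lower (Lyz2 by a log2 fold change of -1.43 and Itgam of -0.78) and 0 higher, against 12.1% and 12% of all genes. The other markers of this list, Csf1r (0.22, adjusted p = 0.0821), Adgre1 (0.028, adjusted p = 0.918) and Cd68 (-0.23, adjusted p = 0.0542), were not called. Each KO value of Cd68 was under each WT value, as for 19.1% of all genes. Each KO value of Csf1r was above each WT value, as for 19.3% of all genes. The part of myeloid cells in the level of Apoe was not tested. Soat1, which esterifies cholesterol for storage, was not called.

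**Figure D3:**
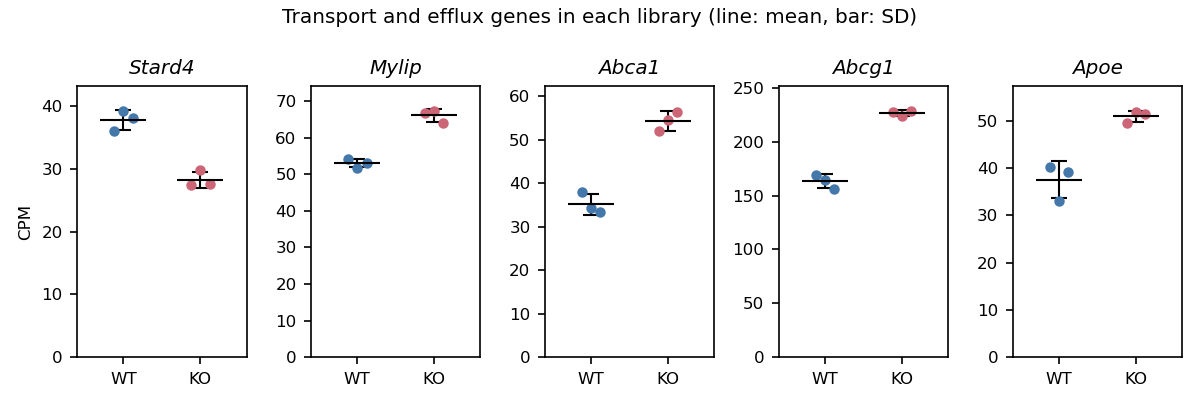
CPM of Stard4, Mylip, Abca1, Abcg1 and Apoe (vertical axes from 0) in WT (blue) and KO (red) libraries, with means as lines and SD as bars. Stard4 is lower in each KO library and the other 4 are higher.

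Of 10 genes for the sterol-driven degradation of pathway enzymes, 3 were higher and 1 was lower, against 12% and 12.1% of all genes. Rnf145, a ubiquitin ligase that acts on SCAP, rose from 185.2 ± 6.34 to 235.3 ± 2.16 CPM (log2 fold change 0.34, adjusted p = 8.47e-06; SD, n = 3 each). March6, the ligase for squalene epoxidase, was at 0.12 (adjusted p = 0.0248), a call lost under 5 of 19 alternatives, without WT replicate 2 (adjusted p = 0.117), KO replicate 2 (0.0697) or KO replicate 3 (0.122) among them.

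Farnesyl diphosphate also feeds ubiquinone, dolichol and protein prenylation. Of 14 genes of this isoprenoid branch, 1 (7.14%) was lower and 2 (14.3%) were higher, which is near the 12.1% and 12% of all genes, and the median log2 fold change was -0.022. Rabggtb, a subunit of the enzyme that prenylates Rab proteins, fell from 45.2 ± 1.04 to 37.3 ± 1.26 CPM (-0.28, adjusted p = 0.000391; SD, n = 3 each). Nus1, a subunit of the dolichol-making transferase, was 0.15 higher (adjusted p = 0.0145), and so was Rce1, a protease of prenylated proteins (adjusted p = 0.0195). The call of Nus1 held under 17 of 19 alternatives and was lost without WT replicate 2 (adjusted p = 0.0625) or KO replicate 3 (0.0831). That of Rce1 held under 13 of 19. The fits without WT replicate 2 (0.111), KO replicate 1 (0.0552) or KO replicate 2 (0.103) were among those that lost it.

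Lipogenic genes, which SREBP1 controls more than SREBP2, were lower in part. Of 12 tested, 5 were lower and 1 was higher, against 12.1% and 12% of all genes, with a median log2 fold change of -0.14. Acaca, acetyl-CoA carboxylase, fell from 47.9 ± 3.28 to 37.7 ± 0.350 CPM (log2 fold change -0.35, adjusted p = 0.000217). Elovl5, which lengthens polyunsaturated fatty acids, fell by 0.19 on the log2 scale (adjusted p = 0.000778). Fads2, a desaturase, was near 1 CPM and fell from 1.34 ± 0.176 to 0.688 ± 0.0937 CPM (-0.94, adjusted p = 0.0036; SD, n = 3 each). The others called were the desaturases Scd2 (-0.15) and Fads1 (-0.23), both lower, and Acacb, the mitochondrial form of acetyl-CoA carboxylase, higher (0.17). Fasn, fatty acid synthase, and Acly, which makes cytosolic acetyl-CoA for both pathways, were not called (-0.071 and -0.081).

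**Figure D4:**
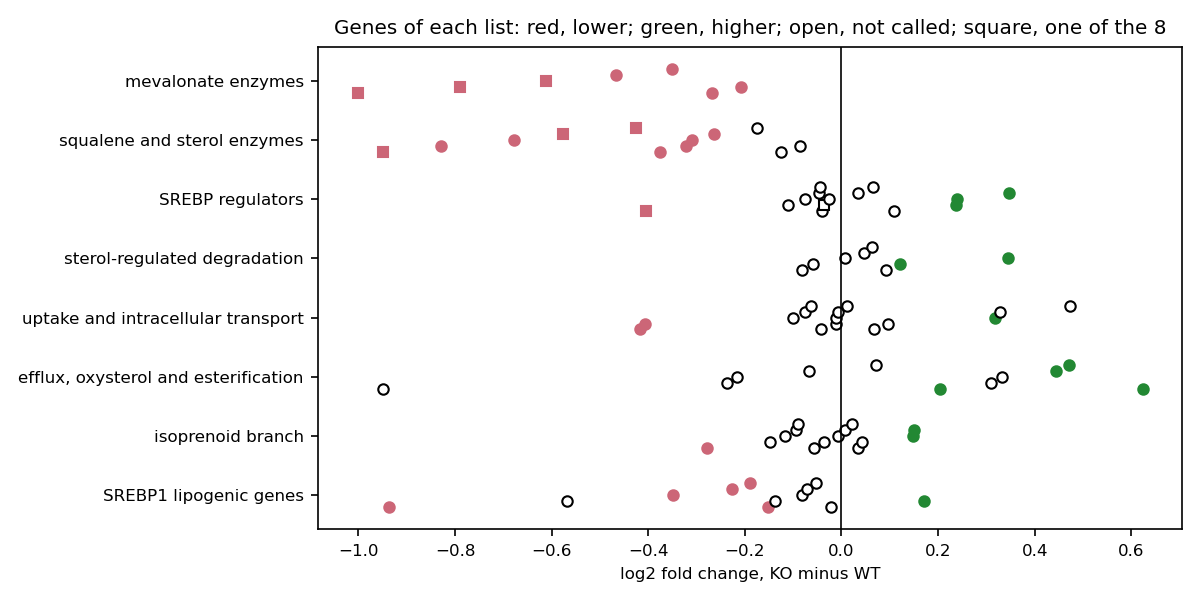
Log2 fold change (KO minus WT, horizontal axis) of tested genes of the 8 pathway lists (rows), without those not reported here, with red for called lower, green for called higher, open for not called and squares for the 8 genes; vertical offsets only separate the points. Both enzyme lists lie wholly below 0, whereas the called genes of the efflux list lie above 0.

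RNA of other cells also differed between the groups. Markers of B cells were lower in 5 of 5, with a summed level of 45.4 to 49.5 CPM in WT and 21.1 to 23.0 CPM in KO. Neutrophil markers were lower in 5 of 5, at 16.7 to 22.1 CPM in WT and 0.857 to 1.17 CPM in KO, and red cell markers in 5 of 5, at 36.5 to 43.4 CPM in WT and 1.81 to 2.31 CPM in KO. Over all genes, 12.1% were called lower. Of 5 markers of CD8 T and NK cells, 0 were called, against 24.1% of all genes in either direction. No marker on these lists was at 0 in all libraries. The part of these cells in the levels of the 8 genes was not tested.

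Some of the 8 genes share sequence with others. On GRCm38, the part of the 50-base windows of a gene's transcripts that other genes also carry was 26.5% for Fdft1, 26.2% for Fdps, 25.3% for Idi1, 11.6% for Hmgcs1 and at most 2.17% for Srebf2, Sqle, Lss and Insig1. Fdft1, on chromosome 14 from 63145150 to 63179578, overlaps exons of Ctsb on the other strand, and Ctsb was higher in KO, by 0.14 on the log2 scale (adjusted p = 0.0145). Fdps, on chromosome 3 from 89093588 to 89101959, shares sequence with several pseudogenes, as does Idi1, on chromosome 13 from 8885501 to 8892451. Exons of Fdps also overlap those of Gm43738 on the same strand, and exons of Idi1 those of Gm48574 on the other strand. Neither Gm43738 nor Gm48574 has a row of its own in the deposited counts. Neither the counting tool nor whether reads were counted by strand is given in the sources used here. The counts of Fdft1, Fdps and Idi1 are therefore less certain, and for Fdps counting by strand would not separate Gm43738. Sqle, on chromosome 15 from 59315077 to 59331192, shares 0.036% of its stretches. The part of shared sequence in these differences was not tested.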

How the data were processed

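RNA-seq of 3 WT and 3 KO libraries was analysed. The values deposited by the authors are whole-number raw counts with rows named by gene symbol, not scaled for library size. HISAT2, DESeq2 and mm10 are named in the submitters' processing notes; the counting tool and annotation are not given in the sources used here. Of rows with a repeated symbol (40), the most counted was used under that symbol. Depth was between 133283969 and 209041812 counts. Counts of 1 (620 entries) were rarer than counts of 4 (2579), and how many fragments were independent is unknown.

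Counts were fitted in R 4.3.3 with edgeR 4.0.16 (quasi-likelihood F test, newer method, robust, TMM, filterByExpr) on all genes, with Benjamini-Hochberg adjustment over 17307 genes. Standard errors were derived from the F statistic, and log2 CPM used a prior count of 2. Alternatives used other scalings, filters, DESeq2 1.42.0, limma-voom (limma 3.58.1), a replicate block, removal of the trend on GC content, and leaving out each library. Positions, exon lengths and GC content come from GENCODE on GRCm38 (mm10).

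The 8 genes, the pathway lists and the markers were chosen with earlier results of these data known, so the lists were given no test. Besides the 8 genes, the text names Zfp335, Scap, Insig2, Srebf1, Cyp51 and Abca1, up to 3 called genes per list with the smallest adjusted p, and the 5 genes most like the mean z score. Other genes named were chosen after their values were seen. Some genes that this rule names are not reported here, though they are included in the counts and medians of their lists.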

Additional observations from a re-analysis of the deposited data

How the results depend on the processing

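Over 19 alternatives with the adjusted p under 0.05 kept as the rule, the 7 genes called lower remained so in each, and Insig1 was not called in any (log2 fold change -0.068 to -0.022). Leaving out each library in turn gave -0.43 to -0.38 for Srebf2, -0.63 to -0.60 for Hmgcs1, -0.99 to -0.88 for Sqle, -1.12 to -0.92 for Idi1, -0.81 to -0.76 for Fdps, -0.60 to -0.56 for Fdft1 and -0.47 to -0.40 for Lss. The replicate block gave -0.40 for Srebf2 and 4227 genes called in all, against 4170. Among the genes named by rule it changed the call of Scap alone. The libraries share only a number: same-numbered libraries hardly deviated together (correlations over genes of 0.0082 to 0.033), and WT replicate 2 correlated better with KO replicate 1 (0.019) than with KO replicate 2. With the GC trend removed as well, Srebf1 was called lower (-0.11, adjusted p = 0.0371) and Rce1 was no longer called (adjusted p = 0.0715).

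With the cutoffs of the study (at least 1.5-fold, p under 0.05, adjusted p under 0.1), 4 of the 8 genes were called; Srebf2 (-0.40), Fdft1 (-0.58) and Lss (-0.42) no longer were, by the fold cutoff. Under these cutoffs 3 of the 15 other enzymes were lower, 2 genes of the other lists were lower and 1 was higher, and 1203 of all genes were called, 757 lower and 446 higher. In the fits that left out a library, all genes called numbered 2740 to 4996 (1399 to 2501 lower, 1341 to 2495 higher), and genes of the other lists called higher 9 to 18, against 14; the low end of each was without WT replicate 2, and without KO replicate 2 the genes called higher numbered 1386. Weakly expressed genes are limited by the unknown number of fragments.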
